A study of Mus musculus with 2 samples.

Results

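Of the 32285 genes in the count tables, 9 known from tissue-resident macrophages and alternatively activated myeloid cells, F13a1, Folr2, Mrc1, Cd163, Lyve1, Retnla, Trf, Chil3 and Maf, were followed here in the cells of MC38 tumours from wild-type mice and from mice of the Ifnar1-SA genotype. All 9 were found. They were chosen because several of them differed between these libraries, so their levels and library ratios below are descriptions and carry no test. MC38 is a mouse colon carcinoma line. Untreated host mice received the line, and infiltrating cells were taken 14 days later for droplet-based single-cell RNA sequencing. WT hosts gave 1 library, and Ifnar1-SA hosts, named for an allele of the type I interferon receptor gene Ifnar1, gave 1 library. The labels do not say what SA stands for, how many animals were pooled, how old they were or how the cells were enriched, and they call the cells both infiltrating immune cells and CD8 T cells. With a single library per genotype, no difference has a replicate check: "higher" and "lower" refer to the 2 libraries, and every interval covers counting error only.

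Resident macrophages settle in a tissue before or apart from the monocytes that inflammation and tumours recruit from blood, and in many tissues they are recognised by the haptoglobin-hemoglobin receptor CD163, the hyaluronan receptor LYVE1, the mannose receptor CD206 encoded by Mrc1, the folate receptor beta encoded by Folr2 and the A subunit of coagulation factor XIII encoded by F13a1. Retnla and Chil3 encode secreted proteins that interleukin-4 induces in mouse macrophages, and Chil3 is also made by bone marrow monocytes. Trf encodes transferrin, which carries iron, and Maf encodes a transcription factor of mature macrophages that T cells use as well.

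Barcodes entered with at least 1000 UMIs (unique molecular identifiers, each counted as 1 captured transcript), at least 500 genes and no more than 10% of UMIs from mitochondrial genes, which kept 4058 WT and 5001 Ifnar1-SA barcodes. With fewer than 2 UMIs of Cd3e, Cd3g and Trac together, a barcode was macrophage-gated at 20 or more UMIs of C1qa, C1qb and C1qc, and monocyte-gated below that limit with at least 2 UMIs of Ly6c2 and 10 of Lyz2. The macrophage gate held 1298 WT and 1659 Ifnar1-SA barcodes with medians of 11536.5 and 10292 UMIs, and the monocyte gate held 161 and 246 with medians of 6444 and 4820.5. Of 15 genes listed for C1q macrophages, which include the 3 that define the gate, all were measured in it and 0 differed past 1.5-fold. The 7 T cell markers, 3 of them limited by the gate, summed to 27.1 CPM (a gene's UMIs scaled to a common total per gate and library) in WT against 36.5 CPM in Ifnar1-SA. Ifnar1 itself stood at 72.5 and 76.3 CPM there. Libraries shared 7 barcode sequences among kept barcodes, 1 of them macrophage-gated in both.

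The promoters of 3 members are shown because these genes were all lower in Ifnar1-SA macrophages, F13a1 and Chil3 being higher in monocytes and Mrc1 in macrophages. RefSeq promoter windows (GRCm38.p6) matched 6 of the 9 members, with 8 windows in all. The 250 bases before the start site are given 5′ to 3′ on the strand of the gene. Capitals mark GAGGAA, the core bound by PU.1, the lineage factor of myeloid cells, and TGCTGA, the half-site bound by Maf factors, on either strand.
F13a1 promoter, chr13:37050245-37050494, minus strand: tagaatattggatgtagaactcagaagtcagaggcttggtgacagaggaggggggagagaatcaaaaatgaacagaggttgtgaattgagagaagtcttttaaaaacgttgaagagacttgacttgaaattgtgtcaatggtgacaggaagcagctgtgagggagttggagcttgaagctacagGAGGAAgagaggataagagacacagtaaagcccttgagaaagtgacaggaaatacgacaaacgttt
Mrc1 promoter, chr2:14229164-14229413, plus strand: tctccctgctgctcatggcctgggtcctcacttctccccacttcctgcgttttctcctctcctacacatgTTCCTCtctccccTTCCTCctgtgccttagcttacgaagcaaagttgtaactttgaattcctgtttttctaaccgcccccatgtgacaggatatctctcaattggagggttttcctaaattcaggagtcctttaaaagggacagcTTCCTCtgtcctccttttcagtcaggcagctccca
Chil3 promoter, chr3:106167565-106167814, minus strand: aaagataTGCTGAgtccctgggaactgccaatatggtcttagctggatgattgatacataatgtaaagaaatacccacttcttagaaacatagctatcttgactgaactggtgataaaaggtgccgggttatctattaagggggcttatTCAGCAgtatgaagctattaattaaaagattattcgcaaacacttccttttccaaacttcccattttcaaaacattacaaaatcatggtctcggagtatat
GAGGAA was found in 3 of the 8 member windows, those of Mrc1, Retnla and 1 of the F13a1 windows, and in 23.3% of all 32851 windows of that length. TGCTGA was found in 4 of the 8, belonging to Folr2, Chil3 and Retnla, against 16.1% of all windows. The interferon-stimulated response element was in 0 of the 8 and in 2.98% of all. The motif of C/EBP factors was in 1 of the 8, that of Retnla, and in 9.56% of all. A STAT motif was in the same Retnla window only and in 5.85% of all. No pair of these motifs overlapped in the windows shown. These are letter matches in short windows, and binding was not measured.

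In macrophage-gated barcodes, 7 members were abundant enough to be counted (30 or more UMIs, and 20 CPM or more as the mean of WT and Ifnar1-SA). Of these, 6 were lower in Ifnar1-SA with a 95% interval wholly past 1.5-fold: F13a1, Folr2, Mrc1, Retnla, Trf and Chil3. Maf was within 1.5-fold and 0 were higher. With the barcodes of highest doublet score left out (7 WT and 13 Ifnar1-SA macrophages, 1 of them of the resident type), Retnla fell under that minimum, and 5 of 6 measured members were lower. Over all 4839 genes measured in that gate, 0.641% were lower by this rule and 0.496% higher, and the median log2 ratio was 0.07. F13a1, Retnla and Chil3 were under 20 CPM in Ifnar1-SA (17.4, 0.108 and 17.5 CPM) and passed the minimum only through WT. A gene that passes in this way can only be lower in Ifnar1-SA. For that reason, and as the members were picked on this contrast, nothing is read from the difference between these shares.

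F13a1 (ENSMUSG00000039109, mm10 chromosome 13, 36867178 to 37050244, minus strand) encodes the enzyme subunit that crosslinks fibrin, and resident macrophages and some monocytes make it. It stood at 72.4 CPM in WT macrophage-gated barcodes (1190 UMIs, 95% Poisson interval 68.4 to 76.7) and at 17.4 CPM in Ifnar1-SA (321 UMIs, 15.5 to 19.4). Ifnar1-SA over WT, the log2 ratio was -2.06 (exact conditional binomial 95% interval -2.24 to -1.88). At least 1 UMI was present in 231 WT barcodes (17.8%, exact Clopper-Pearson interval 15.8 to 19.99) and in 121 Ifnar1-SA barcodes (7.29%, 6.09 to 8.65). The highest barcode held 49 UMIs in WT against 21 in Ifnar1-SA, and the highest WT barcode made up 4.12% of the WT UMIs.

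Folr2 (ENSMUSG00000032725, chromosome 7, 101839988 to 101857194, minus strand) encodes the folate receptor that marks resident macrophages of several tissues. WT macrophages held it at 76.8 CPM (1262 UMIs) and Ifnar1-SA macrophages at 33.7 CPM (623 UMIs), so that the log2 ratio was -1.19 (-1.33 to -1.05), and 26.7% and 15.3% of barcodes held a UMI. Mrc1 (chromosome 2, 14229392 to 14332057, plus strand), the mannose receptor that takes up glycoproteins, was at 183 CPM (3006 UMIs) in WT against 92.6 CPM (1710 UMIs) in Ifnar1-SA, and the log2 ratio was -0.98 (-1.07 to -0.90), with 56.3% and 34.3% of barcodes positive. For both receptors the Ifnar1-SA library held less RNA and fewer positive barcodes.

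Thinning each barcode to 2000 UMIs left out 25 WT and 41 Ifnar1-SA macrophage-gated barcodes and put the shares on 1 depth. F13a1 was then detected in 8.33% of WT and 2.35% of Ifnar1-SA barcodes, Folr2 in 10.998% and 5.01%, and Mrc1 in 24.8% and 10.7%. In T-gated barcodes, which should lack these genes, the thinned shares were 0.376% and 0.0656% for F13a1, 0.251% and 0.131% for Folr2, and 0.502% and 0.393% for Mrc1, at median depths of 5176 and 4476.5 UMIs before thinning. The macrophage shares were above that level of free or mixed RNA in both libraries.

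Cd163 (chromosome 6, 124304656 to 124330527, plus strand), Lyve1 (chromosome 7, 110850607 to 110863239, minus strand) and Retnla (chromosome 16, 48842551 to 48844461, plus strand) came almost wholly from the WT library. Cd163 had 206 UMIs in 28 of the WT macrophage-gated barcodes and 2 UMIs in 2 of the Ifnar1-SA barcodes. Lyve1 had 168 UMIs in 28 WT barcodes and 0 in Ifnar1-SA, at least 63.0-fold lower when the Ifnar1-SA library is set at a floor of 3 UMIs. Both genes averaged under 20 CPM and were not counted above. Retnla reached 2132 UMIs in WT against 2 in Ifnar1-SA (log2 ratio -10.23, interval -13.27 to -8.37), yet 1789 of the WT UMIs (83.9%) lay in 1 barcode and 257 in the next, and 15 WT barcodes held any.

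Trf (chromosome 9, 103204001 to 103230444, minus strand) was at 233 CPM (3834 UMIs) in WT against 103 CPM (1903 UMIs) in Ifnar1-SA, and the log2 ratio was -1.18 (-1.26 to -1.10), and 71.0% and 42.5% of barcodes held a UMI. Its gene overlaps the predicted gene Gm20425 on the same strand, so reads of that locus could be split. Chil3 (chromosome 3, 106147554 to 106167564, minus strand), a chitinase-like lectin, was at 59.1 CPM (971 UMIs) in WT against 17.5 CPM (324 UMIs) in Ifnar1-SA, and the log2 ratio was -1.75 (-1.94 to -1.57). Only 11.4% and 8.56% of barcodes held Chil3, and 3 WT barcodes held 303, 113 and 97 of its UMIs. These 3 barcodes held 41, 16 and 32 UMIs of the arginase gene Arg1 and 0, 0 and 1 of F13a1. Without the 5 highest barcodes of each library the Chil3 log2 ratio was -0.77 and its interval reached inside 1.5-fold, so the size of that difference rested on a few WT barcodes. Maf (chromosome 8, 115682942 to 115707794, minus strand) went the other way, at 235 CPM (3868 UMIs) in WT against 276 CPM (5100 UMIs) in Ifnar1-SA, and the log2 ratio was 0.23 (0.17 to 0.29), with 74.0% and 72.6% of barcodes positive.

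**Figure D1:**
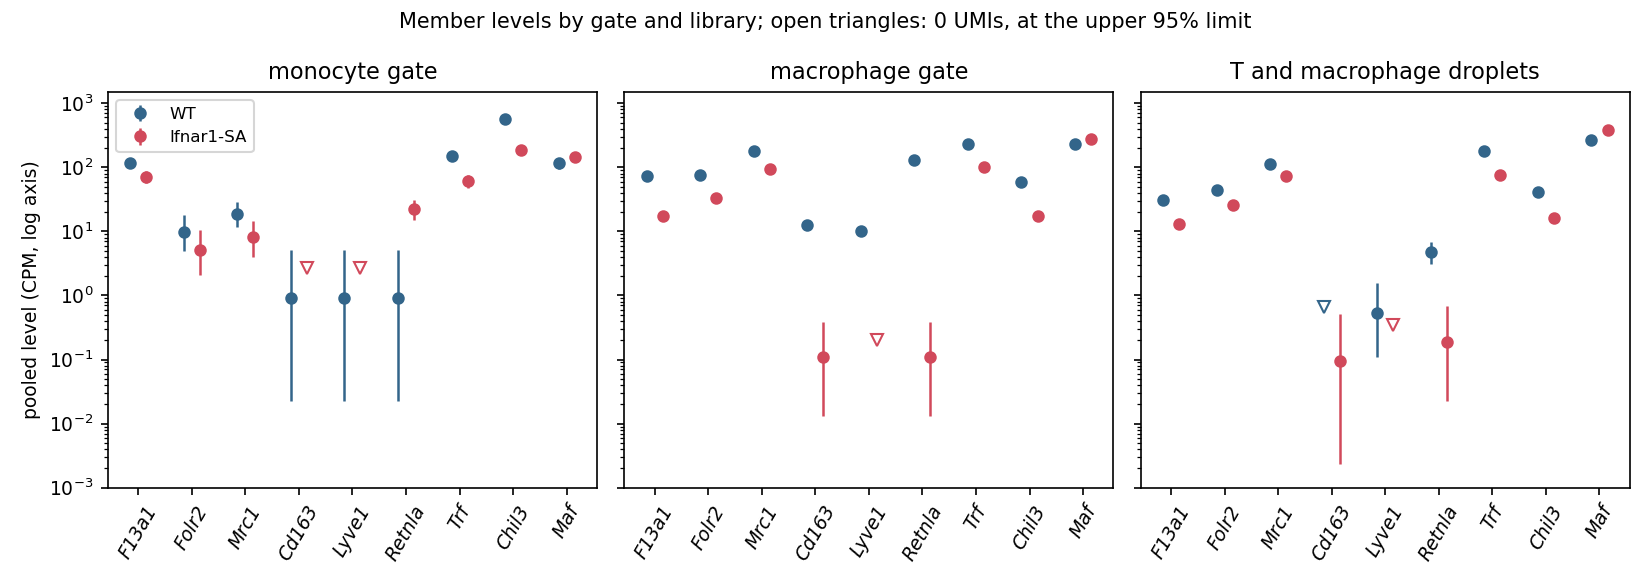
Pooled level of each member in CPM (log axis) in monocyte-gated barcodes, macrophage-gated barcodes and barcodes positive for both T cell and C1q genes; points are the WT and Ifnar1-SA libraries, bars 95% Poisson intervals, open triangles the upper limit where a library had 0 UMIs. In the macrophage gate F13a1 sits at 72.4 and 17.4 CPM while Maf sits at 235 and 276 CPM.

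A small set of WT barcodes carried the resident-type genes together. A summed 5 or more UMIs of Retnla, Lyve1 and Cd163 was reached by 28 of 1298 WT macrophage-gated barcodes (2.16%, exact Clopper-Pearson interval 1.44 to 3.10) and by 0 of 1659 Ifnar1-SA barcodes, which allows a share of up to 0.181% when 3 barcodes are set for a count of 0 (exact Clopper-Pearson upper bound 0.222%). Over all kept barcodes the numbers were 34 of 4058 and 1 of 5001. In pooled levels, fewer such cells and less RNA of these genes per cell cannot be told apart. The number of animals behind the 28 barcodes is not given.

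The 28 barcodes were chosen on Retnla, Lyve1 and Cd163, and the other members were read from them as description. F13a1 and Mrc1 were present in 28 of 28 and Folr2 in 27 of 28. The lowest, median and highest UMIs per barcode were 1, 15.5 and 49 for F13a1, 0, 5.5 and 24 for Folr2, and 3, 20.5 and 49 for Mrc1. Cd163 was in 21, Lyve1 in 20 and both in 15 of them, while Retnla was in 12. Trf was present in 27 (median 5), Maf in 28 (median 9) and Chil3 in 1. So F13a1, Folr2 and Mrc1 went together in these barcodes, and Chil3 was in 1 of them.

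F13a1 stood at 1787 CPM in the 28 barcodes and at 39.8 CPM in the other 1270 WT macrophages. Folr2 stood at 810 and 62.8 CPM, Mrc1 at 1949 and 149 CPM, Maf at 901 and 223 CPM, and Trf at 615 and 226 CPM. With 1.87% of the UMIs of the WT macrophage gate, the 28 barcodes held 46.1% of its F13a1 UMIs, 19.7% of Folr2, 19.9% of Mrc1, 7.16% of Maf, 4.93% of Trf and 0.206% of Chil3. F13a1 was thus the member outside the selecting genes that depended most on them.

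Of 26 other genes listed for resident macrophages, several were concentrated in the same barcodes and others were not. The lectins Cd209f, Cd209d and Cd209g were in 17, 14 and 13 of the 28, the ficolin Fcna in 26, the carbonyl reductase Cbr2 in 26, the endothelin receptor Ednrb in 23 and the growth arrest ligand Gas6 in 24. Of the WT macrophage gate's UMIs, the 28 held 86.9% for Cd209f, 80.5% for Fcna, 93.7% for Ednrb, 42.6% for Cbr2 and 41.4% for Gas6. They held 100% of the 32 UMIs of the complement receptor Vsig4, in 5 barcodes. The phosphatidylserine receptor Timd4 was in 9. Shares were far lower for Ninj1 (4.40%), Stab1 (4.10%), Pf4 (3.99%), P2ry12 (3.23%) and Fcrls (2.90%), beside 1.87% of all UMIs. Cd9 was lower in the 28, at 71.6 CPM against 140 CPM in the other WT macrophages. C1qa stood at 5204 CPM in the 28 against 7983 CPM in the other WT macrophages. The monocyte gene Ly6c2 was in 3, at 32.5 against 431 CPM, but other monocyte genes varied. Ms4a4c stood at 169 against 720 CPM and Thbs1 at 39.1 against 206 CPM. Ccr2 stood at 166 CPM in both, Plac8 at 394 against 418 CPM, S100a4 at 846 against 723 CPM and Fn1 at 670 against 207 CPM. The highest barcode of the 28 held 159 of their 206 Fn1 UMIs, and the highest for S100a4 held 184 of 260. For Ccr2 it held 25 of 51 UMIs and for Plac8 61 of 121. Of the 28, 7 held Ccr2, 13 Plac8, 11 S100a4, 5 Fn1, 4 Ms4a4c and 3 Thbs1. These pooled levels thus rest on few barcodes and do not describe most of the 28. In the 1659 Ifnar1-SA macrophages Cd209f, Cd209g, Cd209b and Vsig4 had 0 UMIs, Cd209d had 3, Timd4 5, Ednrb 10, Fcna 20, Cbr2 88 and Gas6 154. Timd4 there (0.271 CPM) was not below the other WT macrophages (0.186 CPM).

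Not every one of the 28 was alike. The barcode with the most Retnla (1789 of its 75837 UMIs) held 24 Mrc1 and 5 Folr2 UMIs but 1 F13a1 UMI, 6 Ly6c2 UMIs and 0 of Cd163, Lyve1, Cd209f and Fcna. Another, of 38143 UMIs with 11 of Retnla, also lacked Cd163, Lyve1, Folr2, Cd209f and Fcna. With a UMI of Lyve1 or Cd163 asked for as well, 26 barcodes remained (2.003%) and still 0 in Ifnar1-SA. Just outside the limit, 5 WT barcodes with a sum of 3 or 4 held 60 F13a1, 87 Mrc1 and 13 Folr2 UMIs, and just inside it, 5 with a sum of 5 or 6 held 80, 98 and 22. The limit thus left some barcodes of this kind on the other side.

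**Figure D2:**
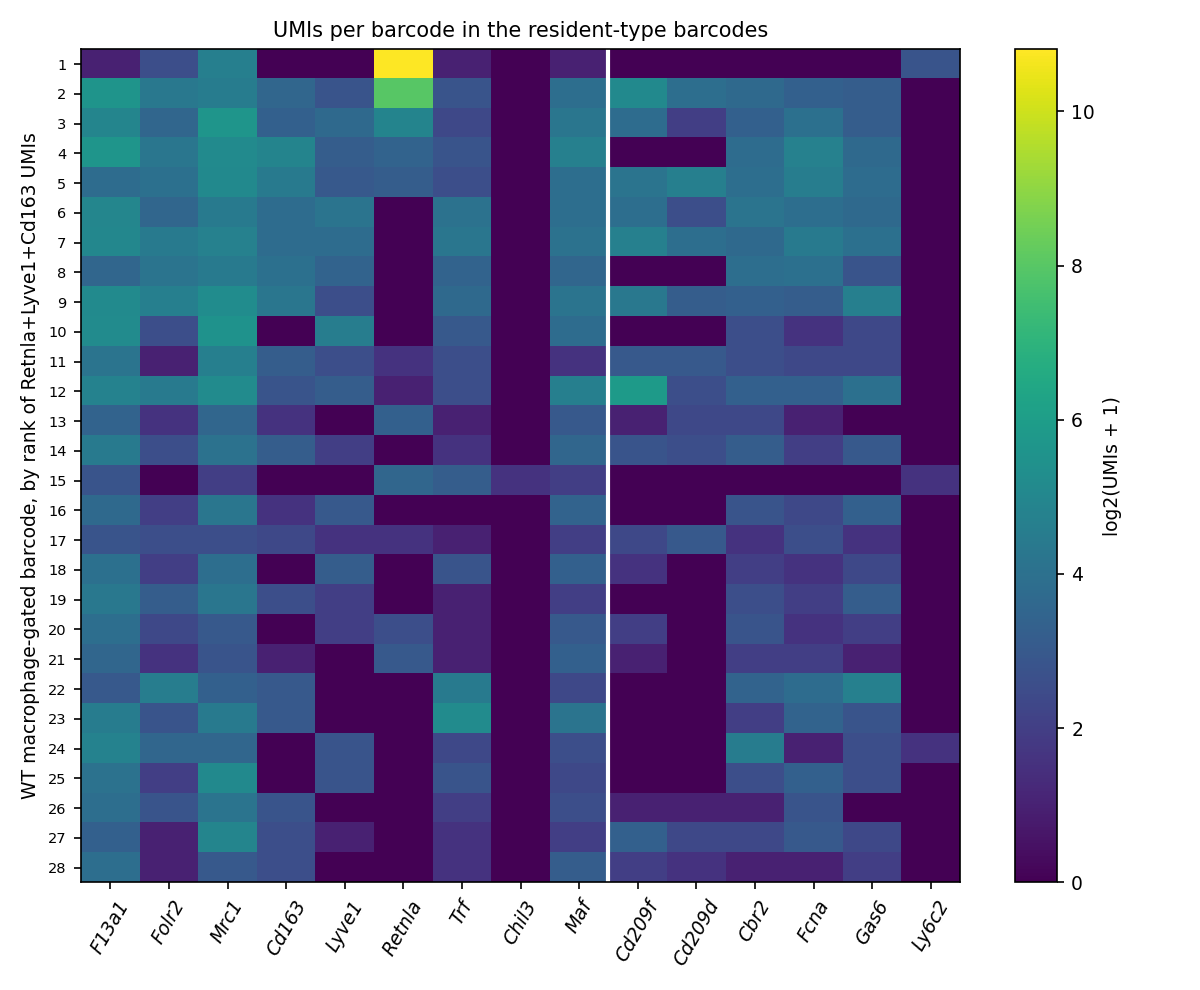
UMIs, as log2(UMIs + 1), of the 9 members (left of the white line) and of 6 other genes in the 28 WT macrophage-gated barcodes with 5 or more UMIs of Retnla, Lyve1 and Cd163, 1 row per barcode in the order of that sum. F13a1 and Mrc1 fill all 28 rows, Chil3 is in 1, and the first row holds 1789 Retnla UMIs without Cd163 or Lyve1.

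Leaving the 28 barcodes out, 6 members were measured in macrophage-gated barcodes and 5 of them, F13a1, Folr2, Mrc1, Trf and Chil3, were lower in Ifnar1-SA past 1.5-fold and 0 were higher, against 0.56% lower and 0.415% higher among all 4819 genes then measured. F13a1 was at 39.8 CPM in WT (641 UMIs) against 17.4 CPM, and its log2 ratio moved from -2.06 to -1.19 (-1.392 to -0.998). Folr2 was at 62.8 CPM against 33.7 CPM (-0.90, -1.04 to -0.75) and Mrc1 at 149 CPM against 92.6 CPM (-0.69, -0.78 to -0.60). Trf, at -1.13, and Chil3, at -1.78, kept values within the intervals found with all barcodes, and Maf was at 0.31. Of these 5, the ratio of F13a1 moved most and those of Trf and Chil3 least. F13a1 and Chil3 again passed the minimum level only through WT.

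A stricter removal, chosen after the data were seen, took out every barcode with any UMI of Retnla, Lyve1, Cd163, Cd209f, Cd209d, Cd209g, Cd209b, Fcna, Ednrb, Vsig4 or Timd4. F13a1 was then at a log2 ratio of -0.84, Folr2 at -0.77, Mrc1 at -0.54, Trf at -1.09, Chil3 at -1.80 and Maf at 0.36. Mrc1 no longer had its interval past 1.5-fold, and 4 members did. Removal of barcodes with any UMI of the 3 selecting genes alone gave 4 as well, with Mrc1 at -0.60. Neither removal was run over all genes, so no share of all genes stands beside these counts and nothing is read from them.

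**Figure D3:**
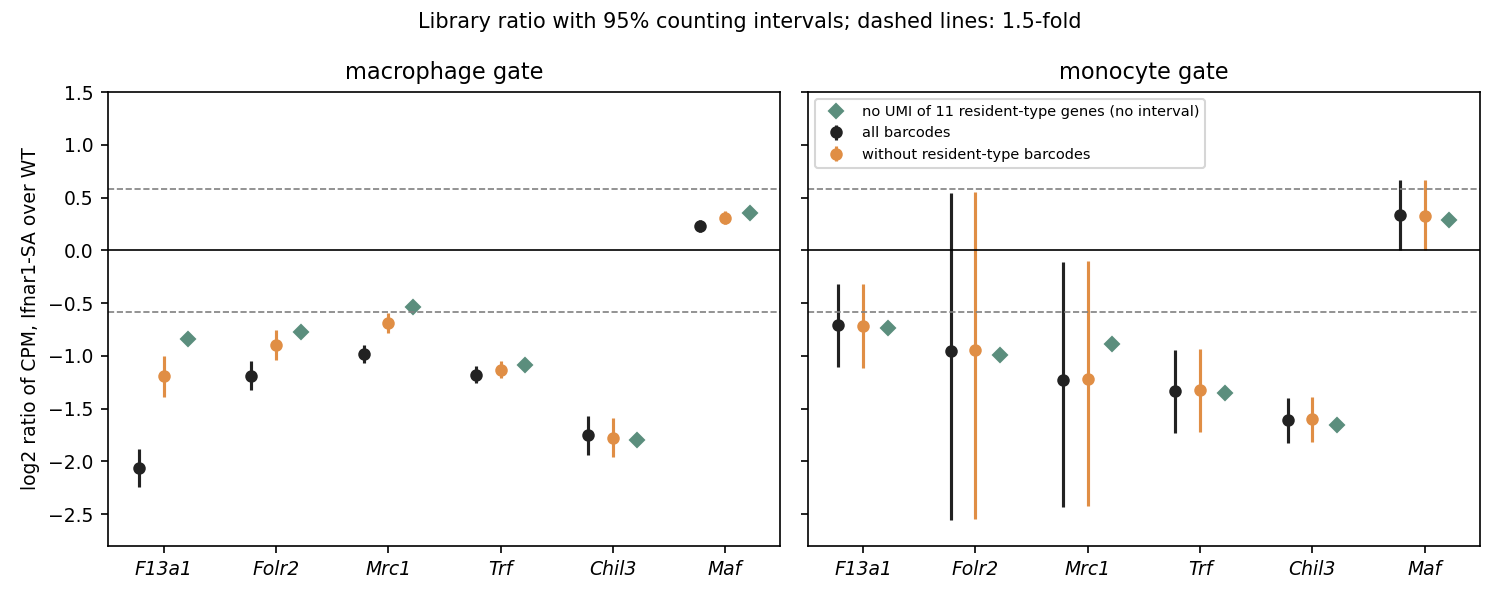
Log2 ratio of CPM, Ifnar1-SA over WT, of 6 members in macrophage-gated and monocyte-gated barcodes: black, all barcodes; orange, without the resident-type barcodes; green, without any barcode holding a UMI of 11 resident-type genes. Bars are 95% counting intervals and dashed lines mark 1.5-fold; F13a1 moves from -2.06 to -1.19 and -0.84 in macrophages while Trf and Chil3 hardly move.

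Outside the resident-type barcodes, F13a1, Folr2 and Mrc1 were found together more often than the product of their shares. At 2000 UMIs per barcode, 21 WT macrophages held both F13a1 and Folr2, where that product gives 7.52, a ratio of 2.79. F13a1 and Mrc1 were together in 44 barcodes against 18.7 from the product (2.35), Folr2 and Mrc1 in 48 against 27.3 (1.76), and F13a1 and Trf in 48 against 25.3 (1.90). All 3 of F13a1, Folr2 and Mrc1 were in 18 barcodes. An excess was not particular to these 3 genes. F13a1 and Maf were together in 43 barcodes against 26.2 (1.64), Folr2 and Maf in 54 against 38.3 (1.41) and Folr2 and Trf in 48 against 37.0 (1.30). For Mrc1 the ratio was 1.34 with Trf and 1.21 with Maf. Of the thinned F13a1-positive WT barcodes, 55.0% also held Mrc1. Before thinning, 16 WT macrophages outside the resident-type barcodes had a resident sum of 1 to 4. After it, the 5 barcodes with Cd163 all held F13a1 and 4 of them Folr2. Co-detection without such barcodes was not tested. Cells of 1 library share their source, so these counts describe the library.

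Chil3 was found with the receptors less often than the product of the shares in WT. It was found with Folr2 in 1 WT barcode where the product gives 6.58, and with Mrc1 in 5 where the product gives 16.4, a ratio of 0.31. With the monocyte gene Ly6c2 it was found in 46 barcodes against 17.1 (2.68) in WT and in 31 against 15.3 (2.03) in Ifnar1-SA. At full depth Mrc1 and Chil3 were together in 66 WT barcodes against 81.4 (0.811) and in 52 Ifnar1-SA barcodes against 48.7 (1.07), so the Mrc1 deficit depended on depth and library, while Folr2 and Chil3 were together in 15 against 36.9 (0.406) and 11 against 21.7 (0.506). F13a1 and Chil3 were not apart: at full depth they were together in 41 WT barcodes against 23.5 from the product (1.74) and in 22 Ifnar1-SA barcodes against 10.4 (2.12), and after thinning in 5 against 4.50 and 2 against 1.01. In Ifnar1-SA the thinned counts were small: F13a1 and Folr2 were together in 8 barcodes against 1.90 from the product, F13a1 and Mrc1 in 9 against 4.06, and Folr2 and Mrc1 in 12 against 8.66 (1.39). Folr2 and Chil3 were together in 1 against 2.15 and Mrc1 and Chil3 in 2 against 4.60, too few to place. Products under 5 are given without a ratio.

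**Figure D4:**
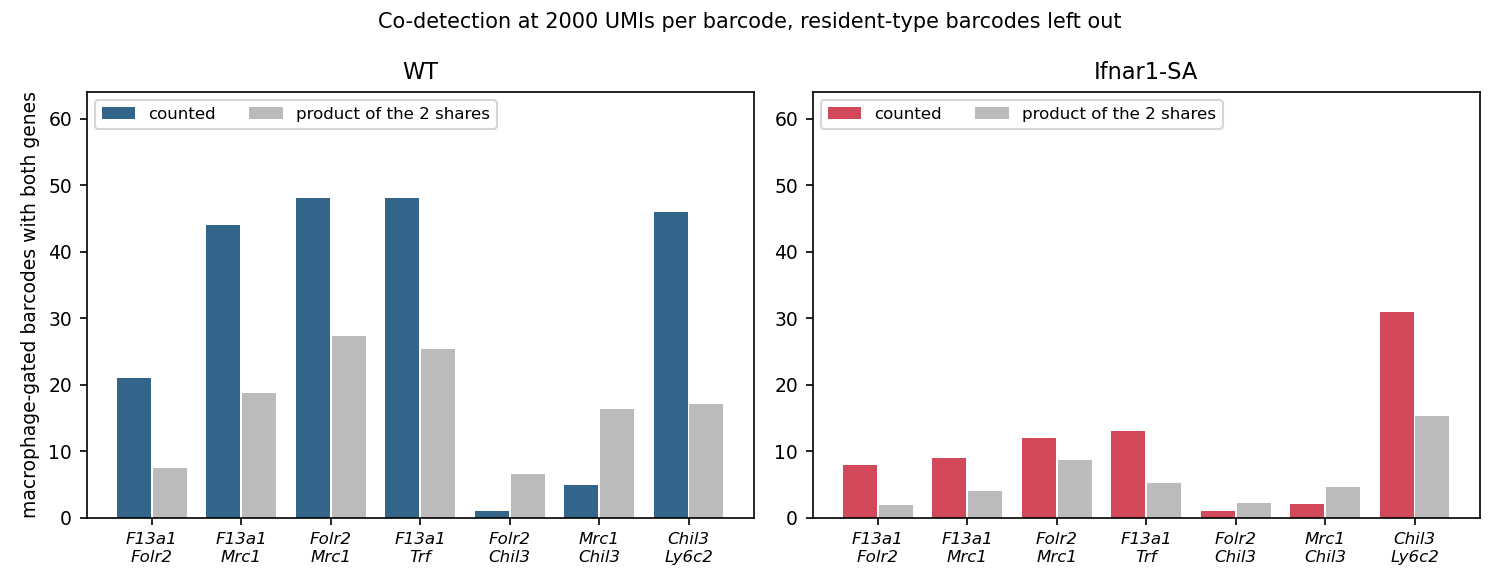
Number of macrophage-gated barcodes with both genes of a pair, after thinning to 2000 UMIs and without resident-type barcodes, beside the number that the product of the 2 genes' shares gives (grey), in WT and Ifnar1-SA. F13a1 with Folr2 stands at 21 against 7.52 in WT and 8 against 1.90 in Ifnar1-SA, and Mrc1 with Chil3 at 5 against 16.4 in WT.

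The genes whose levels ran most alike over macrophage-gated barcodes were ranked by the mean of the WT and Ifnar1-SA Pearson correlations of log-scaled levels among 4664 genes, over 1298 and 1659 barcodes that share a library and its depth. For F13a1 these were Pmp22 (mean r 0.43), Ccl6 (0.40), Cd36 (0.38), Hmox1 (0.38) and Folr2 (0.36). For F13a1 and Pmp22 r was 0.65 in WT and 0.20 in Ifnar1-SA, and without the resident-type barcodes it was 0.45 in WT. For Folr2 they were Pf4 (0.44), Timp2 (0.44), Serpinb6a (0.41), Ccl8 (0.40) and Ctsb (0.38), and for Mrc1 they were Selenop (0.44), Igfbp4 (0.38), Dab2 (0.37), Cltc (0.36) and Timp2 (0.36). Without the resident-type barcodes the F13a1 ranking was Pmp22, Ccl6, Arg1, Hmox1 and Pf4, and r was higher in WT for 3 of them and higher in Ifnar1-SA for Arg1 (0.24 and 0.36) and Pf4 (0.289 and 0.294). For Folr2 and Pf4, r was 0.47 in WT and 0.41 in Ifnar1-SA with all barcodes, and 0.43 in WT without the resident-type ones. For Mrc1 and Selenop it was 0.49 and 0.40 with all barcodes and 0.37 in WT without them, so the order of the libraries turned.

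In monocyte-gated barcodes 4 members were measured, and 2 of them, Trf and Chil3, were lower in Ifnar1-SA past 1.5-fold and 0 were higher, against 0.54% lower and 0.691% higher among all 4632 genes measured there. Chil3 was at 573 CPM (634 UMIs) in WT against 188 CPM (256 UMIs) in Ifnar1-SA, and the log2 ratio was -1.61 (-1.82 to -1.40), and 55.9% and 35.4% of barcodes held it. Trf stood at 152 CPM (168 UMIs) and 60.3 CPM (82 UMIs), a log2 ratio of -1.33 (-1.73 to -0.94). Thinned to 2000 UMIs per barcode, the Trf ratio was -0.48 and its call was lost, with 17.9% and 11.3% of barcodes positive and overlapping intervals (12.3 to 24.9 and 7.52 to 16.1). F13a1 stood at 117 CPM (129 UMIs) and 71.3 CPM (97 UMIs), and its log2 ratio of -0.71 had an interval (-1.11 to -0.32) that reached inside 1.5-fold. Maf stood at 115 and 145 CPM (0.33, 0.00 to 0.67).

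The remaining members were scarce in monocytes. Folr2 had 11 and 7 UMIs and Mrc1 21 and 11, too few to place a difference. Cd163 and Lyve1 had 1 UMI each in WT and 0 in Ifnar1-SA. Retnla had 1 UMI in WT and 30 in Ifnar1-SA, all 30 in 1 barcode of 8712 UMIs, which also held 29 Ly6c2 UMIs. That barcode was the only one of the Ifnar1-SA library with a resident sum of 5 or more, and it held 0 UMIs of Cd163, Lyve1, Folr2 and Mrc1. Leaving it out moved the Chil3, Trf and F13a1 ratios to -1.60, -1.32 and -0.72, with 2 members lower and 0 higher against 0.539% and 0.711% of all 4640 genes. Markers of other cells moved with the gate. Summed over 7 neutrophil genes, the level was 236 CPM in WT against 41.9 CPM in Ifnar1-SA, with 2 and 4 of the 7 at 0 UMIs. S100a8 had 122 and 7 UMIs, and S100a9 had 87 and 0. Over 8 dendritic cell genes the sum was 67.8 and 11.02 CPM, with 0 and 1 at 0 UMIs, and Cd209a had 47 and 0 UMIs. Other sums were higher in Ifnar1-SA: 5 fibroblast genes at 9.04 and 38.9 CPM (1 at 0 UMIs in each library), 4 tumour or epithelial genes at 4.52 and 32.3 CPM (2 and 3 at 0) and 15 C1q macrophage genes at 12069 and 15451 CPM, with 1, Ms4a7, higher past 1.5-fold (345 and 589 CPM). Their part in the monocyte differences was not tested.

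With resident-type barcodes left out, Cd163, Lyve1 and Retnla had too few UMIs to compare monocytes with macrophages. The other members differed between these gates in the same direction in both libraries. Chil3 was higher in monocytes by 3.25 on the log2 scale in WT (3.11 to 3.40) and by 3.43 in Ifnar1-SA (3.19 to 3.67), and F13a1 by 1.55 (1.27 to 1.83) and 2.03 (1.69 to 2.36). Mrc1 was lower in monocytes, at -2.97 and -3.51, and so was Folr2, at -2.66 and -2.70. Maf was at -0.96 and -0.94 and Trf at -0.57 and -0.76. In both libraries F13a1 and Chil3 were thus higher in the Ly6c2-positive gate, and the receptors Folr2 and Mrc1 in the C1q-positive gate.

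By C1q UMIs, F13a1, Folr2, Mrc1 and Trf had their lowest log2 ratios at low C1q, and Chil3 at 50 to 99 C1q UMIs. In barcodes with 20 to 49 C1q UMIs (123 WT and 240 Ifnar1-SA barcodes without the resident-type ones), F13a1 stood at 151 CPM in WT against 25.3 CPM in Ifnar1-SA and Mrc1 at 250 and 38.4 CPM. At 50 to 99 C1q UMIs F13a1 stood at 78.6 and 26.6 CPM and Mrc1 at 187 and 60.3 CPM. At 100 or more, in 991 and 1122 barcodes, F13a1 stood at 31.5 and 15.6 CPM and Mrc1 at 142 and 100.5 CPM. So in WT F13a1 and Mrc1 were lower with more C1q among macrophages, whereas in Ifnar1-SA Mrc1 was higher with more C1q. WT barcodes with a resident sum below 5 stayed in these bins. From the lowest bin to the highest, WT Cd163 had 7, 1 and 4 UMIs and WT Lyve1 had 7, 6 and 2. The part of such barcodes in the F13a1 and Mrc1 levels at low C1q was not tested.

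The order depended on how C1q was counted. Low C1q counts go with shallow barcodes, whose medians were 3668 and 3299.5 UMIs in the lowest bin and 13067 and 12686.5 in the highest. With C1q counted per 10000 UMIs, the lowest bin held 57 and 135 barcodes, F13a1 stood there at 52.7 and 33.1 CPM and Mrc1 at 54.4 and 52.2 CPM, and the largest Mrc1 difference was in the middle bin, at 202 and 76.7 CPM. On the first scale Folr2 stood at 38.8 and 7.49 CPM in the lowest bin (26 and 8 UMIs). It differed least in the middle bin, at 30.4 and 31.1 CPM, and stood at 66.5 and 35.9 CPM in the highest. Per 10000 UMIs, Folr2 stood at 13.2 and 12.1 CPM in the lowest bin and at 70.0 and 37.2 CPM in the highest. Trf was lower in Ifnar1-SA in every bin, from 244 and 69.2 CPM in the lowest to 226 and 109 CPM in the highest.

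**Figure D5:**
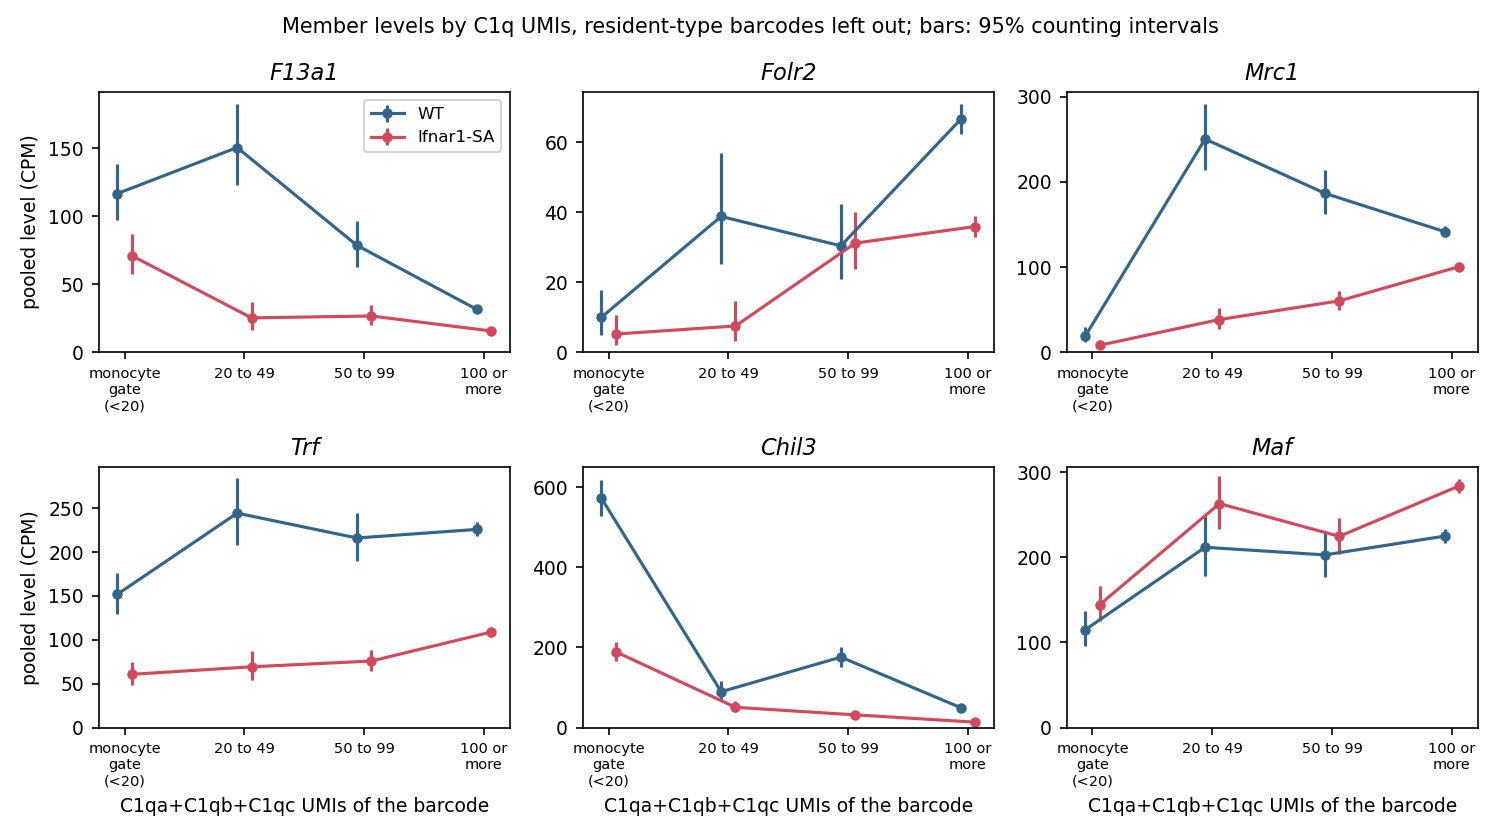
Pooled level (CPM) of 6 members in the monocyte gate and in 3 bins of macrophage-gated barcodes by their C1qa, C1qb and C1qc UMIs, without resident-type barcodes; lines are the WT and Ifnar1-SA libraries and bars 95% Poisson intervals. F13a1 in the 20 to 49 bin stands at 151 CPM in WT against 25.3 CPM in Ifnar1-SA, and Trf is lower in Ifnar1-SA in every bin.

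The rule left out barcodes with T cell UMIs, and these gave a second reading of the same libraries. Of the kept barcodes, 315 in WT and 668 in Ifnar1-SA held at least 2 UMIs of Cd3e, Cd3g and Trac together with 20 or more of C1q, with medians of 16638 and 14803 UMIs. In them F13a1 stood at 30.5 and 12.9 CPM (-1.25, -1.58 to -0.91), Folr2 at 44.1 and 25.4 CPM (-0.80), Mrc1 at 113 and 72.3 CPM (-0.64), Trf at 181 and 76.4 CPM (-1.25) and Chil3 at 41.7 and 16.3 CPM (-1.35). Maf stood at 265 and 381 CPM, and T-gated barcodes held Maf themselves, at 260 and 439 CPM. The sum of Retnla, Lyve1 and Cd163 reached 5 in 1 WT barcode of this kind and in 0 of Ifnar1-SA.

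The X-linked gene Xist and 4 Y-linked genes (Uty, Kdm5d, Eif2s3y and Ddx3y) were both present in the Ifnar1-SA library, in mostly separate barcodes. With resident-type barcodes left out, Xist without any Y-linked UMI was found in 1225 WT and 1089 Ifnar1-SA macrophages, and a Y-linked UMI without Xist in 0 WT and 208 Ifnar1-SA macrophages, with median depths of 11843, 12202 and 6255.5 UMIs. F13a1 stood at 40.02 CPM in the WT Xist barcodes, 14.4 CPM in the Ifnar1-SA Xist barcodes and 18.1 CPM in the Ifnar1-SA Y-linked barcodes. Folr2 stood at 63.1, 34.5 and 31.6 CPM, and Chil3 at 60.5, 17.2 and 17.0 CPM. For these genes both kinds of Ifnar1-SA barcodes were below WT. A further 88 Ifnar1-SA macrophages held both Xist and Y-linked UMIs, and in them F13a1 stood at 44.04 CPM, with a log2 ratio over the WT Xist barcodes of 0.14 (-0.29 to 0.54), while Folr2 and Chil3 stood at 28.8 CPM each. The remaining 274 held neither, with F13a1 at 21.5 CPM.

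Mrc1, Trf and Maf differed between the kinds of Ifnar1-SA macrophages. Mrc1 stood at 151 CPM in WT, 104.9 CPM in Ifnar1-SA Xist barcodes and 36.2 CPM in Y-linked barcodes, with log2 ratios over WT of -0.53 (-0.62 to -0.43) and -2.06 (-2.45 to -1.69). The interval of the Xist barcodes reached inside 1.5-fold. Trf stood at 229, 115 and 60.2 CPM, and Maf at 225, 289 and 228 CPM, so Maf was above WT in the Xist barcodes and level with it in the Y-linked ones. Low Mrc1 and Trf were not particular to Y-linked barcodes. The 44 WT and 274 Ifnar1-SA macrophages with neither marker had medians of 2356 and 4656.5 UMIs. In them Mrc1 stood at 23.1 CPM (6 UMIs) and 30.3 CPM, and Trf at 84.7 CPM (22 UMIs) and 45.5 CPM. The 88 Ifnar1-SA macrophages with both, at a median of 12782 UMIs, held Mrc1 at 111 CPM and Trf at 105 CPM. Among monocytes, F13a1 stood at 115 CPM in 149 WT Xist barcodes, 54.6 CPM in 125 Ifnar1-SA Xist barcodes and 166 CPM in 44 Ifnar1-SA Y-linked barcodes, whose interval (117 to 230) overlapped that of WT (95.6 to 138). Whether depth or the animal of origin goes with these values was not tested.

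Outside the myeloid gates, F13a1 and Folr2 were near 0 in T cells, migratory dendritic cells and fibroblasts. Gates with fewer than 50 barcodes in a library were not described, among them conventional and plasmacytoid dendritic cells and NK cells. In migratory dendritic cells (107 WT and 121 Ifnar1-SA barcodes) and fibroblasts (85 and 102) F13a1 was at most 1.09 CPM and Folr2 at most 0.737 CPM. Ungated barcodes (140 and 284, with medians of 2127 and 1850.5 UMIs) held F13a1 at 45.8 and 11.3 CPM and Mrc1 at 71.8 and 17.6 CPM. Lymphatic endothelium also makes Lyve1. Summed over 5 genes of that type, macrophages held 52.9 CPM in WT against 33.0 CPM in Ifnar1-SA, of which Pdpn made up 52.5 and 32.6 CPM, and 2 and 3 of the 5 were at 0 UMIs, Prox1 and Mmrn1 in both libraries. Free RNA followed the cells: in barcodes of up to 100 UMIs F13a1 stood at 29.6 CPM in WT against 8.34 CPM in Ifnar1-SA, Mrc1 at 92.6 and 38.2 CPM, and Maf at 105 and 142 CPM. Its part in the library ratios was not tested.

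Gene lists around the members, chosen with earlier results of these data known, held few genes past 1.5-fold in macrophage-gated barcodes. Over all 4839 genes measured there, 0.641% were lower and 0.496% higher. Of 26 further resident macrophage genes 11 were measured, and 1, the chemokine Ccl8 (1826 and 1118 CPM, -0.71), was lower past 1.5-fold while 0 were higher. The median over the 11 was -0.43 on the log2 scale beside 0.07 for all genes, the 26 summed to 4252 and 2848 CPM, and 0 and 4 of them were at 0 UMIs. That count was the same without the resident-type barcodes, against 0.56% lower and 0.415% higher among all 4819 genes, with a median of -0.33. Of 9 measured genes of interleukin-4 type activation 1 was lower, Arg1, the arginase of that program (337 and 178 CPM, -0.92), with a median of 0.05 beside 0.07 for all genes. In iron and heme handling (9 measured), folate use (3), clotting and fibrinolysis (5), scavenger and endocytic receptors (8) and macrophage transcription factors (11), 0 were past 1.5-fold in either direction.

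Of 9 measured monocyte genes, 3 were higher in Ifnar1-SA macrophages and 1 was lower, against 0.496% higher and 0.641% lower among all 4839 genes. Ly6c2 stood at 424 CPM in WT against 740 CPM in Ifnar1-SA (0.80, 0.76 to 0.85), Ccr2, the receptor that brings monocytes from blood, at 166 and 267 CPM (0.69), and Ms4a4c at 709 and 1099 CPM (0.63). Fn1, encoding fibronectin, stood at 216 and 133 CPM (-0.70). Without the resident-type barcodes Ms4a4c (0.61) and Fn1 (-0.64) had intervals that reached inside 1.5-fold. That left 2 higher and 0 lower, against 0.415% and 0.56% of all 4819 genes. Of 5 fibroblast genes 2 were measured and both were higher in Ifnar1-SA, the collagen gene Col3a1 at 69.4 and 119 CPM and Dcn at 19.5 and 38.5 CPM, and the list summed to 98.8 and 191 CPM with 0 genes at 0 UMIs in either library. Dcn was under 20 CPM in WT and passed the minimum level only through Ifnar1-SA. The part of these monocyte and fibroblast genes in the members' ratios was not tested.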

How the data were processed

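Deposited matrices hold raw UMI counts for each gene in each barcode. Per the file headers, Cell Ranger 4 wrote them, and mm10 comes from the submitters' processing notes, with the annotation release not given. The WT matrix sums to 55497066 UMIs and the Ifnar1-SA matrix to 62732220. Deposited barcode and feature lists supplied names only. The 9 members, the gene lists, the markers and the alternatives were chosen with earlier results of these data known. UMIs were summed over the barcodes of a gate and scaled to CPM. Log2 ratios have exact conditional binomial 95% intervals, CPM exact Poisson intervals and shares exact Clopper-Pearson intervals, and a ratio was called when its interval lay wholly outside 1.5-fold. A count of 0 was bounded with 3 UMIs, or 3 barcodes for a share, over the library's gate. No test between genotypes was possible with 1 library each. All members were named in each gate, with the 5 genes most like F13a1, Folr2 and Mrc1 and at most 4 genes of a list. Coordinates are those of GENCODE M21. No doublet was removed in the main analysis: Scrublet's automatic limit marked 0 WT and 2 Ifnar1-SA barcodes and so had not worked. The ratio step was checked on simulated pooled Poisson counts only. These leave out the clustering of UMIs in single barcodes, so the check cannot show how the intervals fare under it. Software was Python 3.11.15, scipy 1.17.1 and scanpy 1.11.5.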

Additional observations from a re-analysis of the deposited data

How the results depend on the processing

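With 17 planned and 5 added alternatives, F13a1, Folr2, Mrc1, Trf and Chil3 stayed lower in Ifnar1-SA macrophages under every one, and among members past 1.5-fold the 1 change of sign was that of Retnla, where 3 WT and 2 Ifnar1-SA UMIs left without resident-type barcodes gave 1.33 as a mean of per-barcode CPM. Log2 ratios of F13a1, Folr2 and Mrc1 were -1.19, -0.90 and -0.69 without resident-type barcodes, -0.95, -0.87 and -0.60 without any UMI of Retnla, Lyve1 and Cd163, and -0.84, -0.77 and -0.54 without the 11 resident-type genes. As a mean of per-barcode CPM they were -2.99, -1.47 and -1.62, and thinned to 2000 UMIs -3.30, -1.34 and -1.84, settings that weight shallow barcodes as much as deep ones. Without resident-type barcodes as well, Folr2 and Mrc1 were -1.03 and -1.14 as a mean per barcode and -0.82 and -1.26 thinned, where the Folr2 interval reached inside 1.5-fold. A C1q limit of 40 gave F13a1 -1.82 and Mrc1 -0.85. Xist barcodes alone gave F13a1 -2.33 and Mrc1 -0.82, and Y-linked Ifnar1-SA barcodes against WT Xist barcodes gave Mrc1 -2.35. The added alternatives were chosen after the data were seen. Median ratio scaling moved macrophage ratios by 0.06. In the monocyte gate 1 member was called after thinning to 2000 UMIs in place of 2, with resident-type barcodes or without them, Trf being lost (-0.48 and -0.60). Signs also turned for members not past 1.5-fold: for Y-linked against Xist barcodes F13a1 (0.53) and Folr2 (0.92) in monocytes and Maf (-0.06) in macrophages, and for thinned monocytes Mrc1 (0.02). A limit of 10 in place of 5 UMIs gave a WT resident-type share of 1.16% (15 barcodes), and Ifnar1-SA had 0 under the 13 alternatives tried for that share. No paired analysis was possible because each genotype is 1 library. With 161 and 246 monocyte barcodes, depth limits what can be said of Folr2, Mrc1, Cd163, Lyve1 and Retnla there.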
